A study of Rattus norvegicus and Mus musculus and Macaca mulatta with 84 samples.

Results

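The cytochrome P450 genes of families 1 to 3, which encode most of the liver enzymes that oxidise drugs and other foreign compounds, were followed in liver RNA of rats at several stages of type 2 diabetes and of mice given LNA-29. The genes were taken by symbol, as those named Cyp1, Cyp2 or Cyp3 followed by a letter. There were 37 such genes among 32754 in the rat table and 73 among 48440 in the mouse table. Of these, 30 rat genes and 48 mouse genes had a mean normalised count of at least 10 over their table and were tested, while 3 rat genes and 12 mouse genes were at 0 in every library. The rats were of the UCD-T2DM strain, in which obesity precedes diabetes without any drug or engineered allele in the labels, and gave 5 prediabetic libraries, 4 libraries after 2 weeks of diabetes, 5 after 3 months and 6 after 6 months. The mice were C57BL/6J and gave 5 libraries with LNA-29, a locked nucleic acid directed at the microRNA miR-29, and 6 control libraries. The labels state neither dose, duration nor the treatment of the control mice, nor the age or sex of any animal, so the duration of diabetes and the age of the rats cannot be told apart. Since nothing in the labels says that replicates came from separate animals, p-values measure the spread between these libraries, which may in part be technical.

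P450 enzymes sit in the endoplasmic reticulum of hepatocytes and use electrons passed on by P450 oxidoreductase, the product of Por, to insert oxygen into drugs, steroids, fatty acids and environmental chemicals. Their genes are controlled by receptors that sense such compounds. The aryl hydrocarbon receptor (Ahr) drives family 1, the constitutive androstane receptor CAR (Nr1i3) drives Cyp2b genes and the pregnane X receptor PXR (Nr1i2) drives Cyp3a genes, while the pulsed or steady release of growth hormone sets the sex-specific Cyp2c, Cyp2a and Cyp3a forms of rodents. Many members are tandem copies of each other, so reads can be shared or split between them by the counting, and values of single copies are uncertain to that extent.

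Column sums of the normalised counts lay between 37623525 and 49858906 in rat libraries and between 43341525 and 52750017 in mouse libraries, and the commonest low value was 0.81 to 1.49, so that 1 read was worth about 1 unit. Hepatocyte markers were present throughout, with albumin (Alb) between 1899410 and 6644300 normalised counts in rats. The Y-linked Kdm5d was above 0 in every rat library (382 to 954), and in mice Xist lay between 19539 and 27741 with 4 Y-linked genes at 0. By these genes the rats were male and the mice female, and neither table mixed sexes. In bulk tissue, fewer hepatocytes and less RNA per hepatocyte cannot be told apart.

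After months of diabetes the P450 genes of rat liver moved in both directions: the family 1 genes Cyp1a1, Cyp1a2 and Cyp1b1 and the Cyp3a gene Cyp3a62 were higher, and the phenobarbital-responsive Cyp2b2, its neighbour Cyp2b3 and the male-specific steroid hydroxylase Cyp2c11 were lower. At 3 months 12 of 30 tested members passed an adjusted p of 0.05 in limma (5 higher and 7 lower), a share of 40.0%, where 16.5% of all 13640 tested genes did (7.76% higher and 8.72% lower). At 6 months 14 members passed (5 higher and 9 lower), or 46.7%, where 21.1% of all genes did (11% higher and 10% lower). At 2 weeks limma called 0 members and 0% of all genes. At an unadjusted p under 0.05 there were 4 members and 1077 genes at 2 weeks, and no other tool was run. The 3 stages share the same prediabetic libraries, so their changes are not independent of each other. The median log2 change of the tested members was 0.03 at 2 weeks, -0.04 at 3 months and -0.06 at 6 months, beside 0.02, 0.02 and 0.01 over all tested genes, and the members spanned -3.33 to 2.79 at 3 months and -3.50 to 2.90 at 6 months. Changes are differences on the log2(normalised count + 1) scale, which understates those of low genes. Leaving out the library of 3-month replicate 1 or of 3-month replicate 2 left 7 called members at 3 months, and leaving out single libraries gave 11 to 15 at 6 months.

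**Figure D1:**
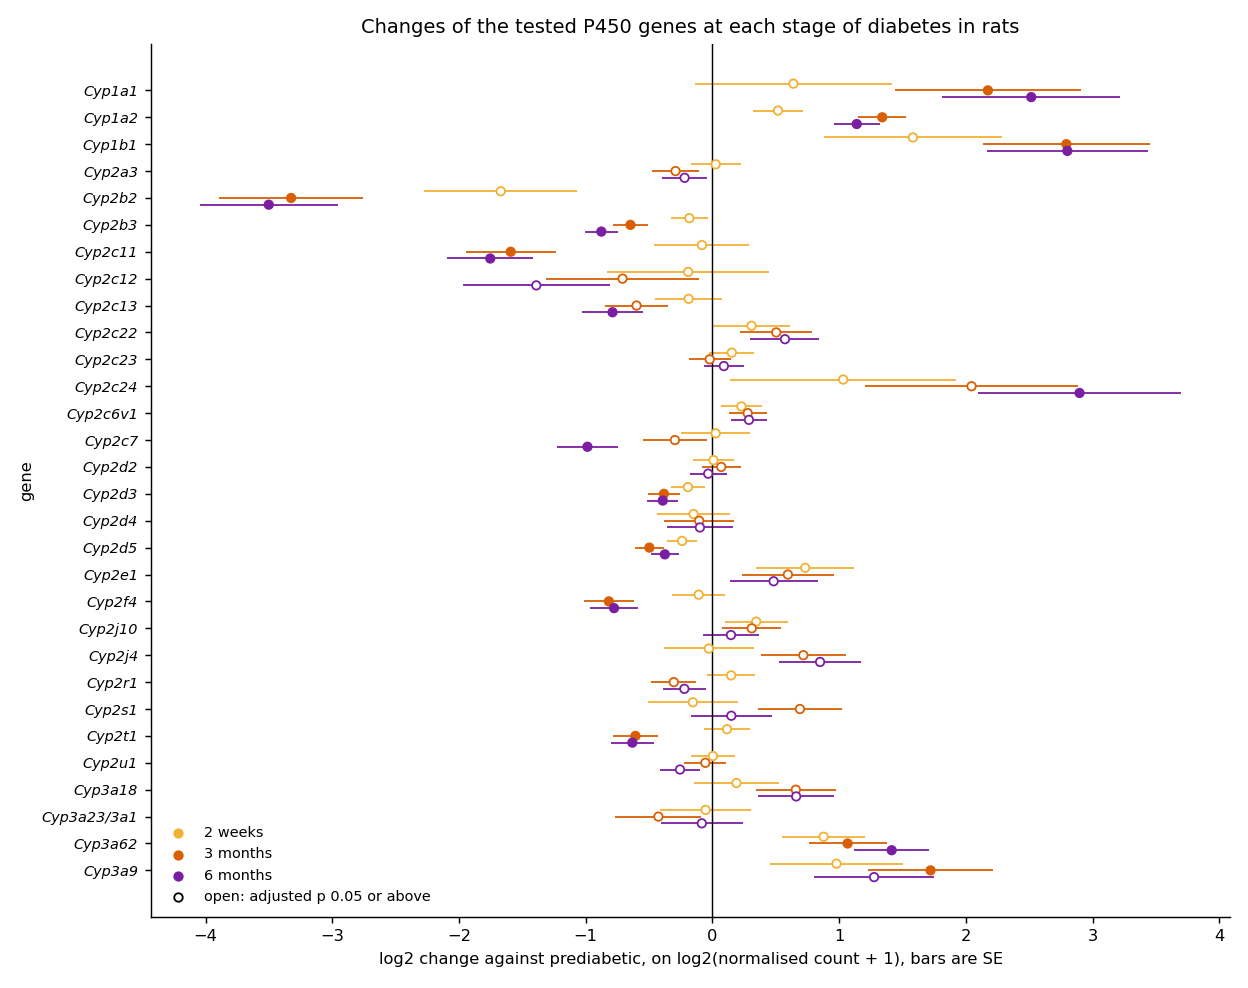
Log2 change against prediabetic rats of the 30 tested P450 genes at 2 weeks, 3 months and 6 months of diabetes, on the log2(normalised count + 1) scale, with standard errors as bars and filled points for an adjusted p under 0.05. Cyp2b2 lies farthest to the left at 3 and 6 months (-3.33 and -3.50), the family 1 genes lie to the right, and all points of the 2-week stage are open.

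All 3 family 1 genes rose at both late stages. Cyp1a2, the main family 1 enzyme of liver, which oxidises caffeine and aromatic amines, had 25656, 16603, 24386, 14993 and 17863 normalised counts in the 5 libraries of 3 months, against 9272, 5257, 10065, 7525 and 7256 in the prediabetic libraries. Every 3-month library lay above every prediabetic one (log2 1.34, SE 0.19, limma adjusted p = 0.000241). At 6 months Cyp1a2 was 13636 at the lowest, 17367 at the median and 21212 at the highest of 6 libraries, again above all prediabetic libraries (log2 1.14, SE 0.18, limma adjusted p = 0.000358). At 2 weeks it was at 10872, 8957, 10374 and 14478, of which 2-week replicate 2 alone lay below the highest prediabetic library (log2 0.52, SE 0.20, limma adjusted p = 0.519). The rise at 3 and 6 months kept its call under the 10 and 11 omissions of single libraries (limma adjusted p up to 0.00103 and 0.00157).

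Cyp1b1, which oxidises oestradiol and polycyclic hydrocarbons and is mostly found outside the liver, was low: it had 43.5, 49.2, 14.04, 135 and 17.3 normalised counts at 3 months, against 5.08, 13.7, 5.38, 1.53 and 2.602 before diabetes. The groups did not overlap, though prediabetic replicate 2 and 3-month replicate 3 lay close to each other, and 3-month replicate 4 was far above its group (log2 2.79, SE 0.66, limma adjusted p = 0.00825). The 6-month libraries held 13.3 at the lowest, 36.5 at the median and 99.2 at the highest, and the lowest of them was under the highest prediabetic library (log2 2.80, SE 0.63, limma adjusted p = 0.00466). The 2-week libraries held 8.06, 6.58, 45.7 and 22.6, with replicates 1 and 2 within the prediabetic range (log2 1.58, SE 0.70, limma adjusted p = 0.579). Cyp1a1, the classical target of the aryl hydrocarbon receptor and the neighbour of Cyp1a2 on the chromosome, had 87.6, 171, 59.01, 15.4 and 65.8 at 3 months, against 5.11, 32.5, 20.9, 4.54 and 20.5 before diabetes. Of the 3-month libraries replicate 4 alone lay within the prediabetic range (log2 2.17, SE 0.73, limma adjusted p = 0.0483). This call was lost on leaving out any library of the pair of groups other than 3-month replicate 4 and prediabetic replicate 2 (limma adjusted p up to 0.124), and with a pseudocount of 10, with no filter on low values or with only the compared groups in the fit. At 6 months Cyp1a1 was 28.8 at the lowest, 51.03 at the median and 391 at the highest and replicate 4 alone lay within the prediabetic range (log2 2.52, SE 0.70, limma adjusted p = 0.016), with the call lost without prediabetic replicate 4 (limma adjusted p = 0.0541).

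The sequences around the starts of Cyp1a2 and Cyp1b1 are shown because both genes rose and their windows differ in matches to the core of the site that the aryl hydrocarbon receptor binds. They are RefSeq promoter windows of 250 bases before to 50 after the start on the rat assembly GRCr8, 5′ to 3′. Capitals mark, on either strand, GCGTG (the receptor's core), TTGCNNAA (a pattern bound by C/EBP factors) and TATAAA (the TATA box). The 3 patterns do not overlap in these windows. Cyp1a2 lies at chr8:66978100-66978399, minus strand, and Cyp1b1 at chr6:21094315-21094614, plus strand.
Cyp1a2: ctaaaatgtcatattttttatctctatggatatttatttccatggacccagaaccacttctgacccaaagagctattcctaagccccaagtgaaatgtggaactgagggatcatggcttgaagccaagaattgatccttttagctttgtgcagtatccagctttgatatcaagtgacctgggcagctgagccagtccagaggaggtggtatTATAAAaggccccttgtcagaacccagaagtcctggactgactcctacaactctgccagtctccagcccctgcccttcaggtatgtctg
Cyp1b1: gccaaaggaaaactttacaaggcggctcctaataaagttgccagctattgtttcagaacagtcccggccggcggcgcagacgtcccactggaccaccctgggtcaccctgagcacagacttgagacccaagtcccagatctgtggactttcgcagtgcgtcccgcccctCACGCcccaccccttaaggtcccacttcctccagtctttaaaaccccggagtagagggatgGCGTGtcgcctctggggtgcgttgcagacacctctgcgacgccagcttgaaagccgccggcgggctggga
The Cyp1a2 window held TATAAA beginning 39 bases before the start and no GCGTG, and the Cyp1b1 window held GCGTG beginning 20 bases before the start and its reverse complement beginning 81 bases before it. Of 33469 windows in the rat table of promoters 29.7% held GCGTG, 10.6% held TTGCNNAA and 14.2% held TATAAA. Among the 33 of 37 members whose symbol matched a window, 6, 13 and 12 held these patterns. A match is a description of the letters and no sign of binding.

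**Figure D2:**
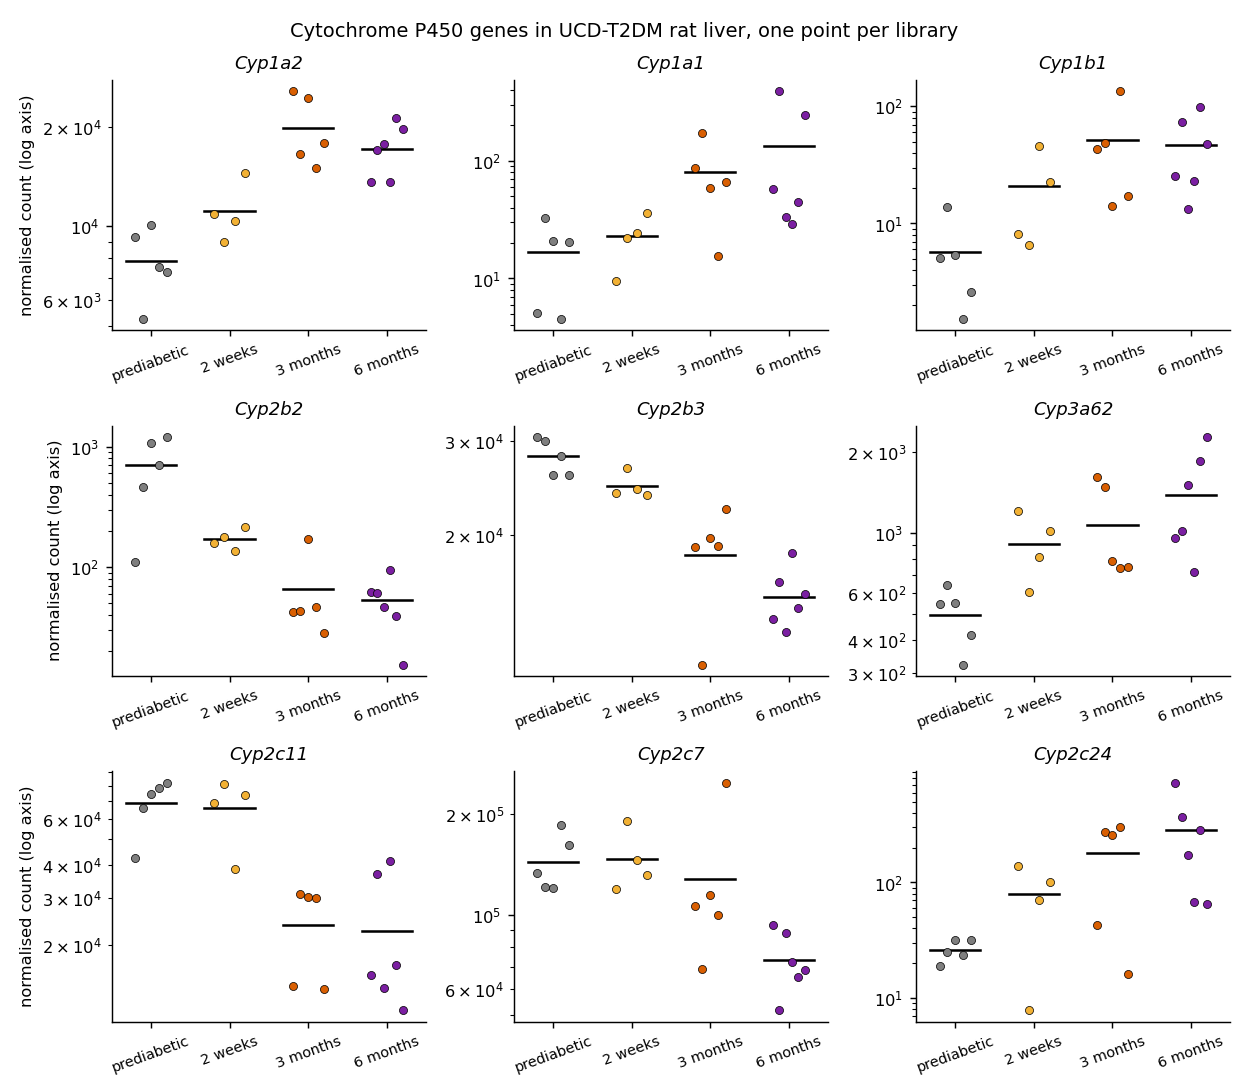
Normalised counts of 9 P450 genes in rat liver on log axes, with a point per library and the group mean as a line, from prediabetic rats to 6 months of diabetes. The 3-month and 6-month libraries of Cyp1a2 all lie above the prediabetic ones and those of Cyp2b3 and Cyp2c11 all lie below them.

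Both tested Cyp2b genes fell at 3 and 6 months. Cyp2b2, the form that phenobarbital induces through CAR, had 42.01, 43.2, 169.6, 46.5 and 28.6 normalised counts at 3 months, against 109, 462, 1068, 704 and 1204 before diabetes. Only 3-month replicate 3 lay above the lowest prediabetic library, which was replicate 1 (log2 -3.33, SE 0.57, limma adjusted p = 0.00109). At 6 months it was 15.5 at the lowest, 53.8 at the median and 95.1 at the highest, below all prediabetic libraries (log2 -3.50, SE 0.54, limma adjusted p = 0.000292). The 2-week libraries, at 158, 178, 136 and 213, were inside the prediabetic range and above all 6-month libraries, and did not pass the test (log2 -1.67, SE 0.60, limma adjusted p = 0.515). Cyp2b3, a constitutive form of rat liver, had 18946, 11449.8, 19738, 19070.5 and 22333 at 3 months, against 30479, 29963, 25871, 28121 and 25885 before diabetes, without overlap (log2 -0.65, SE 0.14, limma adjusted p = 0.00491). At 6 months it was 13169 at the lowest, 15049 at the median and 18534 at the highest, and the 6 libraries lay below all prediabetic and all 2-week libraries (log2 -0.88, SE 0.13, limma adjusted p = 0.000239). At 2 weeks it held 23969, 26678, 24349 and 23783 (log2 -0.18, SE 0.15, limma adjusted p = 0.774). Both genes kept their calls at 3 and 6 months under the omissions of single libraries and the other settings tried.

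Cyp2b2 and Cyp2b3 are adjacent genes, and their windows are shown because the pair fell together. The window of Cyp2b2 is chr1:90722031-90722330, plus strand and that of Cyp2b3 is chr1:90780242-90780541, plus strand, with capitals as above.
Cyp2b2: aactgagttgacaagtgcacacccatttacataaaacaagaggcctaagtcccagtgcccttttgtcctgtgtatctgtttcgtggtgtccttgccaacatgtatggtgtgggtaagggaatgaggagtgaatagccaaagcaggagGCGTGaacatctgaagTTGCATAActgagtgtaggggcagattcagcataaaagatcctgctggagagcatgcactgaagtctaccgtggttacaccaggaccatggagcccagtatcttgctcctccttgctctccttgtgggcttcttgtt
Cyp2b3: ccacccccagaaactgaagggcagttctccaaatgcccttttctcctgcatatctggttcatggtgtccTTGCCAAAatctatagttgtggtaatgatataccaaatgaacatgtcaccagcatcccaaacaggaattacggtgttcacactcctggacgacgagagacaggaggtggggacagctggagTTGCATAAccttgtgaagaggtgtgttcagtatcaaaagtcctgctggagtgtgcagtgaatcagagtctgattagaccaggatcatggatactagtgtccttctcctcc
Both held TTGCATAA, a match to TTGCNNAA, which began 87 bases before the start of Cyp2b2 and 60 bases before that of Cyp2b3. Cyp2b3 held another match 181 bases before its start, and Cyp2b2 held GCGTG 103 bases before its own. The other 3 Cyp2b members of the rat table, Cyp2b12, Cyp2b15 and Cyp2b21, were under the filter with at most 4.26 normalised counts in any library, and Cyp2b1 was not analysed here.

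Of the 4 Cyp3a genes of the rat table, which encode enzymes that oxidise many drugs and steroids, Cyp3a62 rose at 3 and 6 months and Cyp3a9 at 3 months. Cyp3a62 had 1616, 1483, 789.8, 739 and 745 normalised counts at 3 months, against 546, 639.5, 547, 323 and 417 before diabetes, and the groups did not overlap (log2 1.07, SE 0.31, limma adjusted p = 0.023). The call was lost without 3-month replicate 1, 3-month replicate 2, prediabetic replicate 4 or prediabetic replicate 5 (limma adjusted p up to 0.071). At 6 months it was 716 at the lowest, 1265 at the median and 2284 at the highest, above all prediabetic libraries (log2 1.41, SE 0.29, limma adjusted p = 0.00272). At 2 weeks it held 1214, 604, 816 and 1019.9, of which replicate 2 was within the prediabetic range (log2 0.88, SE 0.33, limma adjusted p = 0.515). Cyp3a9, a female-predominant form, had 3119, 4224, 3248, 4134 and 726 at 3 months, against 1050.3, 865, 494, 970.5 and 754 before diabetes, with 3-month replicate 5 alone within the prediabetic range (log2 1.72, SE 0.50, limma adjusted p = 0.023). It lost the call without 3-month replicate 1, 2 or 4 or prediabetic replicate 3 (limma adjusted p up to 0.0614), and at 6 months, at 514 at the lowest, 2443 at the median and 3906 at the highest, it did not pass (log2 1.28, SE 0.47, limma adjusted p = 0.0618). Cyp3a23/3a1, the form that PXR ligands induce most, had 22581, 87106, 73138, 69611 and 21029.9 at 3 months, against 54079, 73253, 63589, 60772 and 60341 before diabetes. Replicates 1 and 5 were far below the prediabetic range and replicates 2, 3 and 4 were near or above its top (log2 -0.43, SE 0.34, limma adjusted p = 0.413). At 6 months it was 42283 at the lowest, 57080.4 at the median and 103606 at the highest (log2 -0.08, SE 0.33, limma adjusted p = 0.88). Cyp3a18 averaged 44116 ± 20829 at 3 months and 42838 ± 19764 at 6 months, against 25778 ± 5787 before diabetes (SD, n = 5, 6 and 5, log2 0.66 and 0.66, limma adjusted p = 0.157 and 0.126).

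The Cyp2c subfamily, which in rats holds the sex-specific steroid hydroxylases, had 1 gene lower at 3 months and 3 lower and 1 higher at 6 months among 8 tested. Cyp2c11, the male-specific testosterone hydroxylase kept up by pulsed growth hormone, had 13977, 31078, 30388, 29913 and 13589.9 normalised counts at 3 months, against 42634, 65758, 74611, 78053 and 81992 before diabetes. All 3-month libraries lay below all prediabetic ones, with replicates 1 and 5 lowest (log2 -1.59, SE 0.35, limma adjusted p = 0.00591). At 6 months it was 11279.6 at the lowest, 16045 at the median and 41328 at the highest, again without overlap (log2 -1.75, SE 0.34, limma adjusted p = 0.00161). The 2-week libraries held 68886, 80958, 38587 and 73854 and overlapped the prediabetic ones (log2 -0.08, SE 0.37, limma adjusted p = 0.978). The falls at 3 and 6 months kept their calls under all omissions and other settings tried. Its window at chr1:246174966-246175265, plus strand is shown because it is a male-specific member that fell at both late stages, and it held TATAAA beginning 31 bases before the start.
Cyp2c11: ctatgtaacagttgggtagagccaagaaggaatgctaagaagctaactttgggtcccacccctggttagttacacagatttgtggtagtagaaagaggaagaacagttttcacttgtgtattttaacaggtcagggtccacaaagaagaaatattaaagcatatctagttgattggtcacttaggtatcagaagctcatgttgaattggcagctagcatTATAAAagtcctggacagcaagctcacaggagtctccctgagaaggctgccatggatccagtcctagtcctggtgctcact

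Cyp2c7, a female-predominant form that hydroxylates retinoic acid, had 51795 at the lowest, 70307 at the median and 92889 at the highest normalised counts at 6 months, against 133298, 121179, 120446, 185172 and 161132 before diabetes, without overlap (log2 -0.99, SE 0.24, limma adjusted p = 0.00789). At 3 months it held 105917, 69056, 114826, 99670.5 and 248057, where replicate 5 was above all prediabetic libraries and replicates 1 to 4 below them (log2 -0.30, SE 0.25, limma adjusted p = 0.452). At 2 weeks it held 119740, 190183, 145876 and 131809 (log2 0.03, SE 0.27, limma adjusted p = 0.99). Cyp2c13, another male-specific form, averaged 33980 ± 12728 at 6 months, against 55884 ± 8282 before diabetes (SD, n = 6 and 5), and 6-month replicate 4 alone lay within the prediabetic range (log2 -0.79, SE 0.24, limma adjusted p = 0.0252). That call was lost without 6-month replicate 5, 6-month replicate 6 or prediabetic replicate 4 (limma adjusted p up to 0.06). Cyp2c24, which adjoins Cyp2c11, went the other way: it was 64.9 at the lowest, 231 at the median and 732 at the highest at 6 months, against 18.7, 24.9, 31.8, 23.6 and 31.8 before diabetes, without overlap (log2 2.90, SE 0.80, limma adjusted p = 0.0156). Its 3-month libraries, at 42.8, 275, 260, 302 and 15.99, held 4 values above the prediabetic range and 1 below it, replicate 5 (log2 2.04, SE 0.84, limma adjusted p = 0.1).

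Cyp2c12, the female-specific steroid sulphate hydroxylase, had 16759, 3007, 3637, 3313 and 3404 normalised counts in the prediabetic libraries. Replicate 1, which was highest, was also the prediabetic library with the least Cyp2c11 and Cyp2b2. Without called changes, Cyp2c12 averaged 2043 ± 1109.5 at 6 months, against 6024 ± 6006 before diabetes (SD, n = 6 and 5, log2 -1.39, SE 0.58, limma adjusted p = 0.0928). Without prediabetic replicate 1 that log2 change was -0.92 (limma adjusted p = 0.261). Leaving out prediabetic replicate 1 left 9 of the 12 called members at 3 months and all 14 at 6 months. Of the male-specific members Cyp2c11 and Cyp2c13, 1 of 2 fell at 3 months and 2 of 2 at 6 months, where 8.72% and 10% of all genes did. Of the female-specific or female-predominant members Cyp2c7, Cyp2c12 and Cyp3a9, 1 of 3 rose at 3 months (7.76% of all genes) and 1 of 3 fell at 6 months (10% of all genes). These short lists leave out other members, such as Cyp3a18 and Cyp3a62, and do not describe sex-biased members as a group. The male-specific Cyp2a2 and Cyp3a2 and the female-predominant Cyp2a1 were not analysed here.

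Among the Cyp2d genes, which oxidise basic drugs, Cyp2d3 and Cyp2d5 were lower at both late stages and Cyp2d2 and Cyp2d4 did not pass. Cyp2d5 had 6972, 8533, 10465, 8994 and 9226 normalised counts at 3 months, against 12996, 14786, 12067, 11522 and 10862 before diabetes, without overlap (log2 -0.50, SE 0.11, limma adjusted p = 0.00704). At 6 months it was 8403 at the lowest, 9609.5 at the median and 10748 at the highest, again without overlap (log2 -0.38, SE 0.11, limma adjusted p = 0.0205). Cyp2d3 had 29574, 34377, 47892, 37078 and 35339.5 at 3 months, against 47444, 56842, 45821, 46737 and 41666 before diabetes, with 3-month replicate 3 within the prediabetic range (log2 -0.38, SE 0.13, limma adjusted p = 0.0463). At 6 months Cyp2d3 was 32647 at the lowest, 34152 at the median and 45302 at the highest, with replicate 4 alone within the prediabetic range (log2 -0.39, SE 0.12, limma adjusted p = 0.0284). Its 3-month call was lost on leaving out any library of the pair other than 3-month replicate 3 and prediabetic replicate 5, and its 6-month call without 6-month replicate 1, 3, 5 or 6 or prediabetic replicate 2 or 4 (limma adjusted p up to 0.127 and 0.0625). With no filter on low values neither call passed (limma adjusted p = 0.0793 at 3 months and 0.0506 at 6 months), and the 3-month call was also lost with only the compared groups in the fit (limma adjusted p = 0.0977).

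Cyp2d3 and Cyp2d5 are near copies in a cluster of Cyp2d genes, and their windows are shown for the likeness of the sequences around their starts. The window of Cyp2d3 is chr7:115802093-115802392, minus strand and that of Cyp2d5 is chr7:115784438-115784737, minus strand. Placed against each other with an offset of 39 bases and no gaps, they shared 251 of 261 aligned bases (96.2%), and the 10 differing bases are in capitals here.
Cyp2d3: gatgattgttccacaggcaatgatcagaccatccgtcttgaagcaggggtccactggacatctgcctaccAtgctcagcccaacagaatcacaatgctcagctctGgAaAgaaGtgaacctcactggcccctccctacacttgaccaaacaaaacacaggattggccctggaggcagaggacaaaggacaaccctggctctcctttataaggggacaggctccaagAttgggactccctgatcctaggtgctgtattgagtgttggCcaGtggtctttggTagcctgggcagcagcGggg
Cyp2d5: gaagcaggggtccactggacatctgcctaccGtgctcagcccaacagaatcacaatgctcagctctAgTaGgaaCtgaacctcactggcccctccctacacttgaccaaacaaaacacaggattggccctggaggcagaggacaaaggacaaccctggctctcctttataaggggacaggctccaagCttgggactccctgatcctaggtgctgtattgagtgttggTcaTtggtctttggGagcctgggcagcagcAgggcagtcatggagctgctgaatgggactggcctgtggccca
The windows lie mostly before the start, so they do not show how alike the transcripts are, and that was not computed. Where transcripts of copies are alike, reads can be assigned to the wrong gene. The values of Cyp2d3 and Cyp2d5 are therefore best read together, and Cyp2d1 was not analysed here. The Cyp2d subfamily summed to 99261 ± 20807 normalised counts at 3 months and 95426 ± 14065 at 6 months, against 110349 ± 11235 before diabetes (SD, n = 5, 6 and 5).

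The 8 members with the highest mean counts in rats were Cyp2e1, Cyp2c7, Cyp2c6v1, Cyp2c22, Cyp3a23/3a1, Cyp2c23, Cyp2a3 and Cyp2d2, and of these only Cyp2c7 was called in any comparison. Their order is one of counts and not of levels per transcript length. Cyp2e1, which oxidises ethanol and acetone and is known to be raised by fasting and by chemically induced diabetes in rats, had 83449, 198899, 286290, 221361 and 87848 normalised counts at 3 months, against 104788, 110837, 99922, 104085 and 97268 before diabetes. Replicates 1 and 5 were below the prediabetic range and the other 3 were far above it (log2 0.60, SE 0.36, limma adjusted p = 0.272). At 2 weeks all 4 libraries, at 159987, 122182, 179326 and 246775, lay above the prediabetic range without passing the test (log2 0.73, SE 0.38, limma adjusted p = 0.646). At 6 months Cyp2e1 was 74900.4 at the lowest, 173050 at the median and 233363 at the highest (log2 0.48, SE 0.35, limma adjusted p = 0.347). Its coefficient of variation was 29.5% at 2 weeks, 50.2% at 3 months and 46.7% at 6 months, against 5.01% before diabetes.

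Cyp2c22, which hydroxylates retinoic acid, had 98328, 33371, 53648, 96372 and 64045 normalised counts at 3 months and 50239 at the lowest, 67074 at the median and 101279 at the highest at 6 months, against 48502, 39544, 44277, 49509 and 45132 before diabetes. All 6-month libraries lay above the prediabetic ones, but the change did not pass (log2 0.57, SE 0.27, limma adjusted p = 0.142). Its 2-week libraries held 53714, 29899, 75402 and 81369, on both sides of the prediabetic range (log2 0.31, SE 0.30, limma adjusted p = 0.827). Cyp2c6v1 had 72565, 90129, 113952, 83494 and 85441 at 3 months and 81087 at the lowest, 84899 at the median and 117542 at the highest at 6 months, against 55234, 91249.5, 78520.5, 75158 and 68191 before diabetes, and its 2-week libraries held 74263, 82318, 87645 and 98069.5. These groups overlapped at each stage (log2 0.23, 0.28 and 0.29 in order of stage). Cyp2c23, an arachidonic acid epoxygenase, had 44512, 62673, 50472, 56622 and 35353 at 3 months and 41978 at the lowest, 50467 at the median and 69979 at the highest at 6 months, against 48098, 52925, 41621, 54891 and 52267 before diabetes, and 53007, 53164, 60263 and 54885 at 2 weeks. Its groups overlapped at every stage (log2 0.15, -0.02 and 0.09 in order of stage).

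Cyp2a3, the Cyp2a gene of the rat table, had 29682, 63400.3, 57835, 55767 and 32135 normalised counts at 3 months and 37477 at the lowest, 46575 at the median and 57865 at the highest at 6 months, against 61523, 53795, 52559, 53758 and 57305 before diabetes, and its 2-week libraries held 57506, 64842, 54569.7 and 50742. Its 3-month replicates 1 and 5 were far below the others (log2 0.03, -0.29 and -0.22 in order of stage). The neighbouring copy Cyp2a1 was not among the members of the table. Reads of that copy may have been counted as Cyp2a3, which was not tested, so the level of Cyp2a3 itself is uncertain. Cyp2d2 had 38922, 44250.1, 69746, 61729.5 and 46802 at 3 months and 37040.3 at the lowest, 46048 at the median and 60836 at the highest at 6 months, against 50855, 54366, 41482, 52026 and 45824 before diabetes, and 46464, 47868, 50574 and 51026 at 2 weeks. The stages overlapped, with log2 changes of 0.01, 0.07 and -0.03 in order of stage. At 2 weeks Cyp3a23/3a1 held 53975, 58769, 54933 and 73496, which overlapped the prediabetic libraries (log2 -0.05, SE 0.36, limma adjusted p = 0.985).

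**Figure D3:**
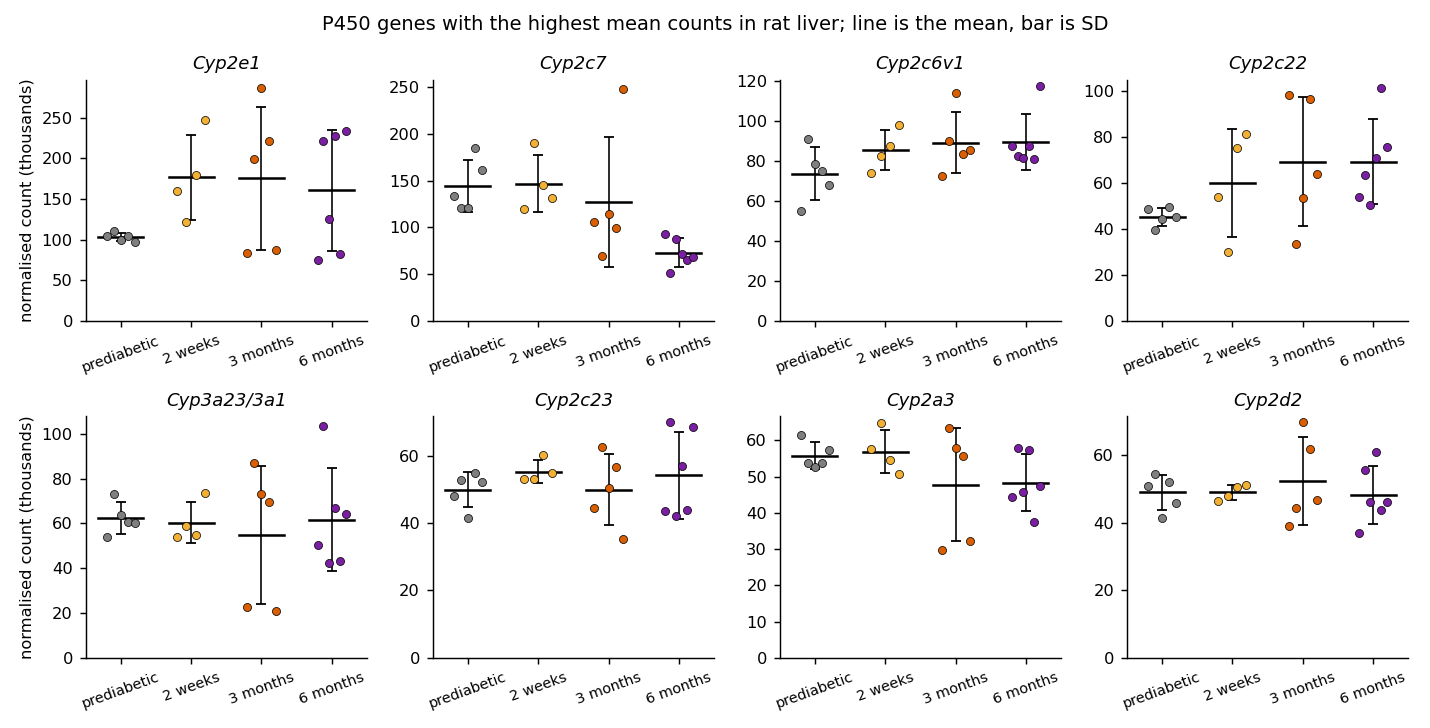
Normalised counts, on linear axes scaled as labelled, of the 8 P450 genes with the highest mean counts in rat liver, with a point per library, the mean as a line and the SD as a bar, from prediabetic rats to 6 months of diabetes. The prediabetic libraries of Cyp2e1 lie close together, between 97268 and 110837, and the 3-month libraries split into 2 low and 3 high values.

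Libraries of rats at 3 and 6 months of diabetes differed from each other in P450 levels more than prediabetic ones did. The SD of the log2 values exceeded the prediabetic SD in 24 of 30 members (80.0%) at 3 months and in 24 of 30 at 6 months, beside 47.7% and 48.1% of all tested genes. At 2 weeks it did so in 16 members (53.3%), beside 34.3% of all genes. The median SD of the members was 0.28 at 2 weeks, 0.60 at 3 months and 0.43 at 6 months, against 0.28 before diabetes, while over all genes it was 0.20, 0.26 and 0.26, against 0.27. These counts are a description, since members share libraries. All 37 members together made up 1.57, 2.13, 2.72, 2.58 and 2.03% of the normalised counts in the 3-month libraries, against 1.99, 1.97, 1.98, 2.17 and 2.05% in the prediabetic libraries. In the 6-month libraries they made up 1.51, 2.33, 1.59, 2.096, 1.46 and 1.77%, and in the 2-week libraries 2.18, 2.205, 2.43 and 2.74%. Library 1 of 3 months and libraries 1, 3, 5 and 6 of 6 months were below the prediabetic range, while all 2-week libraries, libraries 3 and 4 of 3 months and library 2 of 6 months were above it.

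Acute-phase genes and markers of other cell types were set beside these values. The 15 acute-phase genes, which hepatocytes induce under inflammation, made up 13.5, 6.53, 6.14, 5.03 and 8.104% of the normalised counts in the 3-month libraries 1 to 5, against 4.85, 5.74, 5.45, 4.84 and 4.88% in the prediabetic libraries. In the 6-month libraries 1 to 6 the shares were 10.8, 5.07, 10.5, 5.34, 15.01 and 9.05%. The library with the highest share in each late group, 3-month replicate 1 and 6-month replicate 5, was also the library of its group with the lowest share of P450 counts. Of the 15 genes 3 rose at 3 months and 7 at 6 months, among them the lipopolysaccharide-binding protein Lbp (log2 1.78 and 2.35). Of 9 Kupffer cell markers, which are genes of liver macrophages, 8 rose at each late stage. Their sum was 21223 to 49523 at 3 months and 22775 to 65255 at 6 months, against 14092 to 22646 before diabetes. Of 10 stellate cell markers 5 rose at 3 months and 4 at 6 months, led by decorin (Dcn, log2 2.08 and 2.36), with sums of 7486 to 10608 at 3 months and 6119.9 to 9518 at 6 months, against 3930.1 to 6744 before diabetes. Of 7 tested bile duct markers 1 rose at 3 months and 4 at 6 months, and the 8 in the table summed to 967 to 3053 at 3 months and 1392 to 2560.3 at 6 months, against 906 to 1614 before diabetes. Of 9 tested lymphocyte and neutrophil markers 4 rose at each late stage, and the 13 in the table, of which 1 was at 0 in every library, summed to 1512 to 4886 at 3 months and 1321 to 4084 at 6 months, against 1028 to 1240.2 before diabetes. Of 9 sinusoidal endothelium markers 1 rose at each late stage. Beside the counts of all these lists, 7.76% of all tested genes rose and 8.72% fell at 3 months, and 11% rose and 10% fell at 6 months. The 10 pancreatic acinar markers in the table, of which 3 were at 0 in every library, summed to 187 to 262 at 3 months and 98.6 to 229.7 at 6 months, against 259.7 to 573 before diabetes, and the 1 tested fell at 6 months. The 7 kidney and gut markers, of which 1 was at 0 in every library, summed to 28.7 to 87.6 at 3 months and 36.3 to 46.1 at 6 months, against 62.02 to 109 before diabetes, and the 1 tested fell at both late stages. At 2 weeks limma called 0 of these markers, with 0 of the acute-phase, Kupffer cell, bile duct and lymphocyte or neutrophil genes, 2 of the stellate cell and 1 of the endothelial genes at an unadjusted p under 0.05. The part of inflammation or of other cell types in the P450 changes was not tested.

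**Figure D4:**
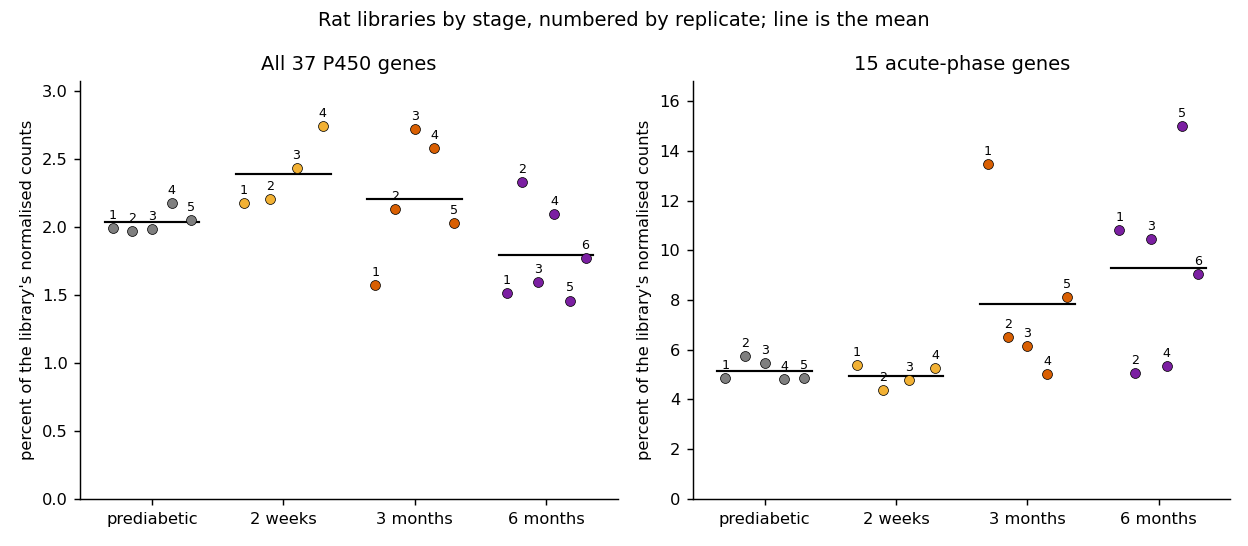
Share of all 37 P450 genes in the normalised counts of each rat library (left, in percent) and share of 15 acute-phase genes (right, in percent), by stage from prediabetic to 6 months, with points numbered by replicate and the mean as a line. At 6 months replicate 5 has the highest acute-phase share (15.01%) and the lowest P450 share (1.46%).

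Among the remaining family 2 genes, Cyp2f4, which oxidises naphthalene, fell: it averaged 1281 ± 272 at 3 months and 1328 ± 350.3 at 6 months, against 2252 ± 461 before diabetes (SD, n = 5, 6 and 5). All 3-month libraries and 5 of 6 of the 6-month libraries lay below the prediabetic range (log2 -0.82 and -0.78, limma adjusted p = 0.00964 and 0.00764). Its neighbour Cyp2t1 had 623, 566, 892, 883 and 788 at 3 months, against 1504, 1505, 923, 1003 and 861 before diabetes, with 3 of 5 below the prediabetic range (log2 -0.61, SE 0.17, limma adjusted p = 0.0228). This call was lost without 3-month replicate 1 or 2 or prediabetic replicate 1 or 2 (limma adjusted p up to 0.0667) and with only the compared groups in the fit. At 6 months Cyp2t1 was 590.1 at the lowest, 743 at the median and 908 at the highest, with replicate 4 alone within the prediabetic range (log2 -0.63, SE 0.17, limma adjusted p = 0.0118), and at 2 weeks it held 1354, 1378, 1076 and 1097 (log2 0.11, SE 0.19, limma adjusted p = 0.912). The vitamin D hydroxylase Cyp2r1 and the genes Cyp2s1 and Cyp2u1 did not pass at any stage. Neither did the arachidonic acid epoxygenases Cyp2j4 and Cyp2j10, with log2 changes at 6 months of 0.85 and 0.15. Genes under the filter, Cyp2ab1, Cyp2g1, Cyp2j16 and Cyp2w1, had at most 1.96 normalised counts in any library.

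Comparing the stages of diabetes directly, 3 members passed between 3 months and 2 weeks, where 2.35% of all genes did (1.15% higher and 1.2% lower). Cyp1a2 was higher at 3 months (19899.9 ± 4805 against 11170.4 ± 2349.6 at 2 weeks, SD, n = 5 and 4, log2 0.82, SE 0.20, limma adjusted p = 0.0378). Cyp2c11 was lower (23789 ± 9145 against 65571 ± 18659, log2 -1.51, SE 0.37, limma adjusted p = 0.0395), as was Cyp2t1 (750.4 ± 149.6 against 1226 ± 162, log2 -0.72, SE 0.19, limma adjusted p = 0.0451). None of these 3 genes overlapped between the groups, which is no separate support, since they were picked by a test of the same libraries. The share of all genes without overlap was not computed. Each call was lost on leaving out 6 or 7 of the 9 libraries in turn (limma adjusted p up to 0.164, 0.159 and 0.175). All 3 were lost without 2-week replicate 1 or 2 or 3-month replicate 1, 2 or 3, which left 0 called members, and 1 passed without 2-week replicate 3 or 4. Cyp1a2 was also lost without 2-week replicate 3, Cyp2c11 without 2-week replicate 4 or 3-month replicate 5, and Cyp2t1 without 2-week replicate 3 or 4. The count was 0 when only these groups entered the fit and with no filter on low values.

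Between 6 months and 2 weeks 5 members passed, all lower at 6 months, where 8.82% of all genes did (4.66% higher and 4.16% lower). They were Cyp2b3 (log2 -0.69), Cyp2c11 (-1.67), Cyp2t1 (-0.75), Cyp2c7 (-1.01) and Cyp2f4 (-0.67), with limma adjusted p-values of 0.00688, 0.0097, 0.0166, 0.0222 and 0.0461. Cyp2b3 and Cyp2c11 kept the call under all 10 omissions. Cyp2t1 lost it without 2-week replicate 1 or 2, Cyp2c7 without 2-week replicate 2 and Cyp2f4 without any of 8 libraries, the exceptions being 2-week replicate 4 and 6-month replicate 4 (limma adjusted p up to 0.0691, 0.0947 and 0.173), and Cyp2f4 also lost it with no filter on low values or with only the compared groups in the fit. Without 6-month replicate 4 there were 8 called members, without 2-week replicate 1 there were 3 and without 2-week replicate 2 there were 2. Between 6 and 3 months limma called 0 members and 0.0147% of all genes, or 2 genes, with 1 member and 1058 genes at an unadjusted p under 0.05.

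Of 5 electron donors and binding partners of the P450 enzymes 3 fell at 6 months, Por, the cytochrome b5 reductase Cyb5r3 and Pgrmc1, a haem-binding protein that binds P450 enzymes and is no electron donor. Por, which passes electrons to the P450 enzymes, averaged 6253 ± 4211 at 3 months and 6436 ± 3672 at 6 months, against 14946 ± 7433 before diabetes (SD, n = 5, 6 and 5), and passed at 6 months (log2 -1.30, SE 0.46, limma adjusted p = 0.0491) but not at 3 months (log2 -1.37, SE 0.48, limma adjusted p = 0.0551). The 6-month call was lost without 6-month replicate 1, 3, 4 or 6 or prediabetic replicate 1, 3, 4 or 5 (limma adjusted p up to 0.138), with no filter on low values and with only the compared groups in the fit. Pgrmc1 (log2 -0.40 at 6 months) lost its call without 6-month replicate 1, 3, 5 or 6 or prediabetic replicate 3 or 4 (limma adjusted p up to 0.0677) and with only the compared groups in the fit. Of the 5 genes Cyb5r3 alone fell at 3 months (log2 -0.64), and its log2 change at 6 months was -0.57. Of 12 genes of haem synthesis and breakdown 2 fell at 6 months, where 10% of all genes did. They were the synthesis enzymes Cpox and Fech (log2 -0.48 and -0.29). Alas1, the rate-limiting enzyme of haem synthesis, did not pass (log2 -0.49 at 3 months and -0.15 at 6 months).

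Of 17 tested nuclear receptors and related factors, 4 fell at 3 months, and 3 fell and 1 rose at 6 months. Of all tested genes 8.72% fell and 7.76% rose at 3 months, and 10% fell and 11% rose at 6 months. In both directions together 21.1% of all genes were called at 6 months, and the 6-month count of the list is near that share. The list is short, and its counts were not tested against these shares. Nr1i3, which encodes CAR, averaged 3101 ± 1751 at 6 months, against 905 ± 410.4 before diabetes (SD, n = 6 and 5), and rose (log2 1.67, SE 0.45, limma adjusted p = 0.0137), while the CAR-responsive Cyp2b2 fell. Nr1i2, which encodes PXR, fell at 3 months (log2 -0.67, SE 0.21, limma adjusted p = 0.0352), a call lost without 3-month replicate 1 or 2 or prediabetic replicate 1, 4 or 5 (limma adjusted p up to 0.105), and did not pass at 6 months (log2 -0.42). The oestrogen receptor Esr1 fell at both stages (log2 -1.49 and -1.69), as did the liver factor Cebpa (-0.68 and -0.86). Ahr did not pass at any stage (log2 0.31 at 3 months and -0.19 at 6 months), nor did the liver factor Hnf4a (0.02 and -0.14).

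Targets of the same receptors outside the P450 genes went in both directions. Of 3 tested targets of the aryl hydrocarbon receptor the quinone reductase Nqo1 rose at both late stages (log2 1.63 and 1.72), where the 3-month call was lost without 3-month replicate 1, 2 or 5 or prediabetic replicate 1, 2 or 3 (limma adjusted p up to 0.0891). Of 18 targets of CAR and PXR, 2 rose and 1 fell at 3 months, and 6 rose and 3 fell at 6 months. Of all tested genes 16.5% were called at 3 months and 21.1% at 6 months, so the 3-month count is near the share of all genes. The exporter Abcc3 rose most (log2 3.13, SE 0.36, limma adjusted p = 3.36e-05 at 3 months and log2 3.33, SE 0.34, limma adjusted p = 6.14e-06 at 6 months), and the glutathione transferase Gsta3 rose at 6 months (log2 1.72). The glutathione transferase Gstm1 fell at both stages (log2 -0.61 and -0.79) and the epoxide hydrolase Ephx1 at 6 months (-0.90).

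Some genes of the growth hormone axis, which sets the sex-specific P450 genes, were lower at the late stages. Of 15 tested genes of this list 4 fell and 1 rose at each late stage, where 8.72% and 10% of all genes fell. The list as a whole had a median log2 change of 0.02 at 3 months and -0.23 at 6 months, beside 0.02 and 0.01 over all genes. The growth hormone receptor Ghr averaged 8982 ± 2464 at 3 months and 7348 ± 2024 at 6 months, against 17285 ± 1985 before diabetes (SD, n = 5, 6 and 5, log2 -0.98 and -1.27). The growth hormone target Igfals fell (log2 -1.44 and -1.64), the other falls were Esr1 and Igf1, and the kinase Jak2 rose (0.57 and 0.42). Stat5b, which carries the growth hormone signal to these genes, did not pass (log2 0.27 and 0.01). Of 6 sex-biased liver genes outside the members 2 fell and 1 rose at 3 months, and 3 fell and 1 rose at 6 months. Among them Cyp7b1 rose at both stages (log2 1.82 and 2.12), where the 3-month call of Cyp7b1 was lost without 3-month replicate 1 (limma adjusted p = 0.0503).

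Several members are strongest around the central vein, so markers of the liver's zones were set beside them. Of 9 tested pericentral markers 3 rose at both late stages, the glutamine synthetase Glul (log2 1.42 and 0.85) and the transporters Slc1a2 (2.51 and 2.23) and Slc13a3 (1.90 and 1.39), and Rgn fell at 6 months (-0.89). The 10 in the table summed to 40669 to 53471 at 3 months and 20353 to 43076 at 6 months, against 30281 to 38601 before diabetes. Of 10 periportal markers 1 rose at both stages, Cdh1 (log2 1.08 and 1.17), and 2 fell at 3 months, and their sum was 112391 to 286901 at 3 months and 130285 to 431942 at 6 months, against 132414 to 288652 before diabetes. Of 9 hepatocyte markers 2 fell at 3 months, and 1 fell and 2 rose at 6 months. Beside these zone and hepatocyte counts, 7.76% of all tested genes rose and 8.72% fell at 3 months, and 11% rose and 10% fell at 6 months. The transthyretin gene Ttr fell at both stages (log2 -1.32 and -1.22) and the fibrinogen gene Fgb rose at 6 months (1.33). The part of zonation in the P450 changes was not tested.

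In mice, LNA-29 against control addressed whether lowering miR-29 activity changes liver RNA, and few P450 genes passed. The level of miR-29 in these mice was not analysed here. With LNA-29 3 members were lower, Cyp2j9, Cyp3a25 and Cyp2c70, and 1 was higher, Cyp2d41-ps. These 4 of 48 tested members were 8.33%, where 2.43% of all 14596 tested genes passed (1.57% higher and 0.863% lower). The median log2 change of the members was -0.08, beside 0.00 over all genes, and the members spanned -1.07 to 1.26. At an unadjusted p under 0.05 there were 11 of 48 members, the 4 included, beside 2809 of all 14596 tested genes (19.2%). The count of called members was 1 without LNA-29 replicate 1, 3 or 5 or control replicate 3, 2 without control replicate 1, 2, 4 or 6 or with no filter on low values, and 7 without LNA-29 replicate 2.

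Cyp2j9, of a subfamily that oxidises arachidonic acid, had 72.01, 159.5, 75.8, 143 and 109 normalised counts with LNA-29, against 187 at the lowest, 228 at the median and 253 at the highest in control mice. The groups did not overlap (log2 -1.07, SE 0.20, limma adjusted p = 0.0165), and the call held under all 11 omissions (limma adjusted p up to 0.0447). Cyp3a25, a Cyp3a form of liver and gut, had 13773, 18621, 16013, 19967 and 15057 with LNA-29, against 20352 at the lowest, 23740.5 at the median and 27867 at the highest in controls, without overlap (log2 -0.51, SE 0.10, limma adjusted p = 0.0309). It lost the call without LNA-29 replicate 1, 3 or 5 or control replicate 2, 3 or 6 (limma adjusted p up to 0.0844). Cyp2c70, which makes the muricholic acids of mouse bile, had 2042, 2642, 1549, 2795 and 1552 with LNA-29, against 2757 at the lowest, 3198 at the median and 3947 at the highest in controls. LNA-29 replicate 4 lay within the control range, just above its lowest value, and the other 4 lay below it (log2 -0.66, SE 0.16, limma adjusted p = 0.0464). Cyp2d41-ps, annotated as a pseudogene by its name, had 32.3, 28.97, 58.4, 38.1 and 44.4 with LNA-29, against 7.26 at the lowest, 16.1 at the median and 24.8 at the highest in controls, without overlap (log2 1.26, SE 0.29, limma adjusted p = 0.0446). The calls of Cyp2c70 and Cyp2d41-ps were each lost under 9 of 11 omissions (limma adjusted p up to 0.12 and 0.119). For Cyp2c70 the exceptions were LNA-29 replicates 2 and 4, and for Cyp2d41-ps they were LNA-29 replicate 2 and control replicate 2. Both calls were also lost with no filter on low values.

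**Figure D5:**
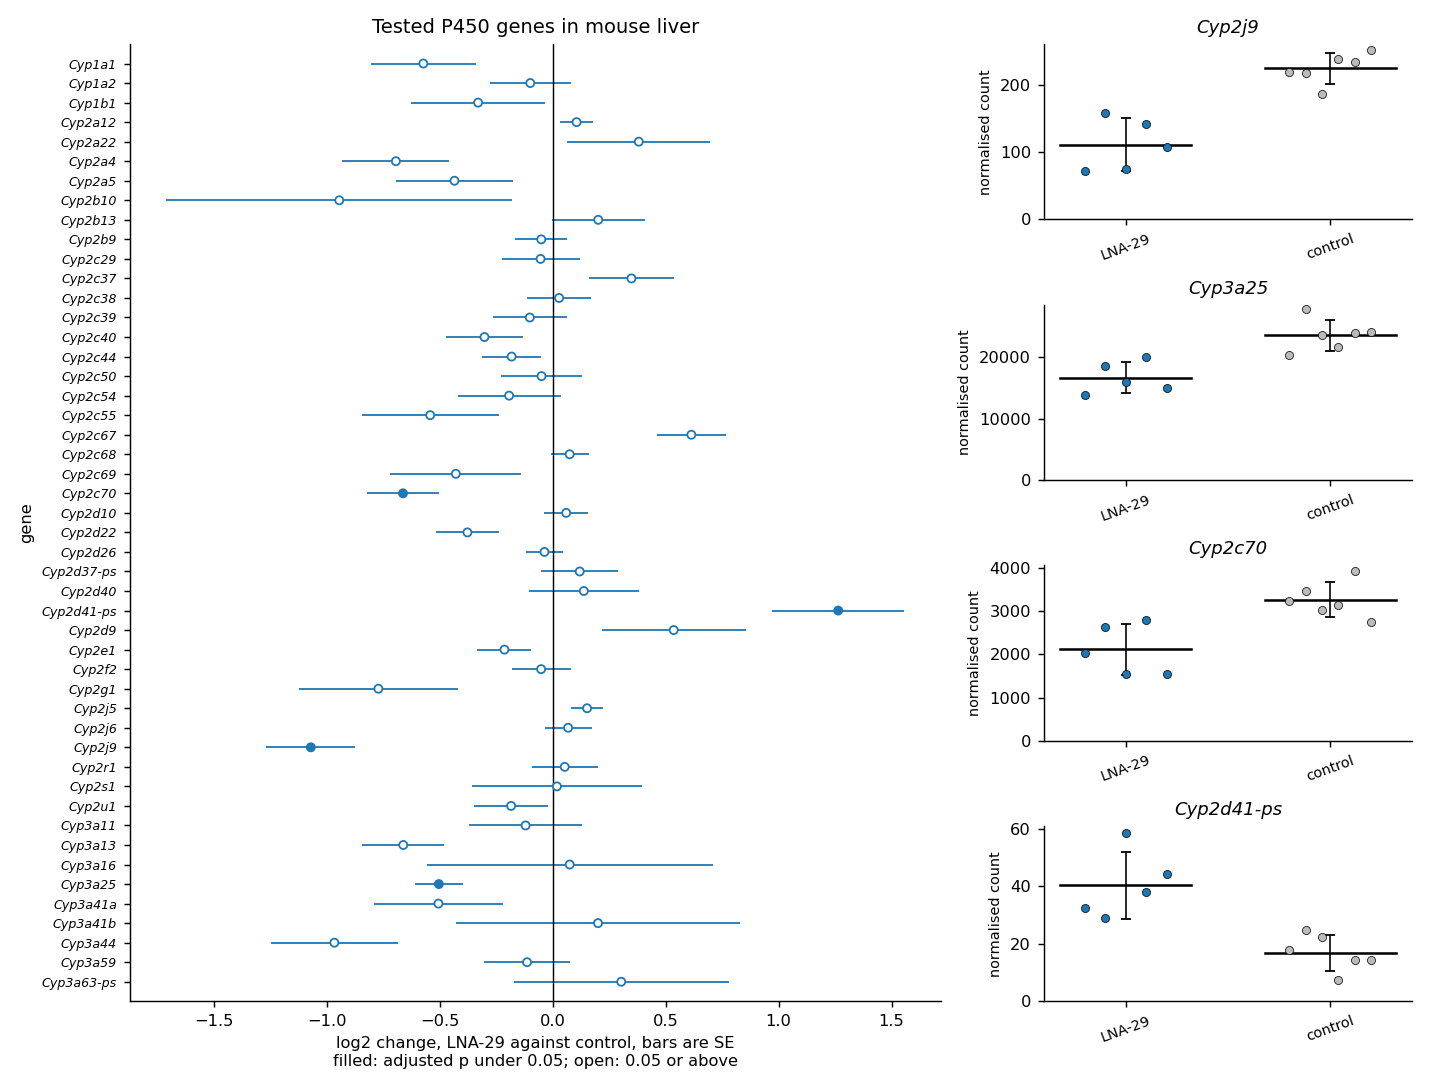
Left, log2 change with LNA-29 against control of the 48 tested P450 genes in mouse liver, on the log2(normalised count + 1) scale, with standard errors as bars and filled points for an adjusted p under 0.05. Right, normalised counts of the 4 genes that passed, with a point per library, the mean as a line and the SD as a bar. Cyp2j9, Cyp3a25 and Cyp2d41-ps show no overlap between LNA-29 and control libraries.

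The 8 members with the highest mean counts in mice did not pass. Cyp2e1 had 269577, 326799, 304810, 306575 and 293417 normalised counts with LNA-29, against 301608 at the lowest, 356153 at the median and 388018 at the highest in controls (log2 -0.21, SE 0.12, limma adjusted p = 0.353). Cyp3a11, the main PXR target of mouse liver, had 78036, 215737, 86900.2, 109443 and 79630.2 with LNA-29, against 80305 at the lowest, 117580 at the median and 153472 at the highest in controls (log2 -0.12, SE 0.25, limma adjusted p = 0.84). LNA-29 replicate 2 was far above its group and above all controls. The female-predominant Cyp3a41a had 91018, 34221, 43137, 87009.8 and 46636 with LNA-29, against 52734 at the lowest, 80321 at the median and 136138 at the highest in controls (log2 -0.51, SE 0.28, limma adjusted p = 0.356). Cyp2d26 had 35771, 37823, 38177, 43017 and 33602 with LNA-29, against 33694 at the lowest, 39019 at the median and 42898 at the highest in controls (log2 -0.04, SE 0.08, limma adjusted p = 0.852). In both genes the groups overlapped widely. Cyp2c37 had 31659, 30200.3, 45229, 53561 and 31174 with LNA-29, against 18622 at the lowest, 30872 at the median and 36016 at the highest in controls (log2 0.35, SE 0.19, limma adjusted p = 0.337). Cyp2c29, its relative in the same subfamily, had 26551, 24178, 31078, 43054 and 26191 with LNA-29, against 22112 at the lowest, 30237 at the median and 42484 at the highest in controls (log2 -0.05, SE 0.17, limma adjusted p = 0.904). LNA-29 replicate 4 was highest of all libraries in both. Cyp2a12 had 31428, 33155, 28442, 31769 and 27881 with LNA-29, against 24634 at the lowest, 29054 at the median and 29832 at the highest in controls (log2 0.10, SE 0.07, limma adjusted p = 0.459). Cyp2f2, which oxidises naphthalene, had 25873, 36657, 28741, 31102 and 21055 with LNA-29, against 25345 at the lowest, 28739.9 at the median and 34572 at the highest in controls (log2 -0.05, SE 0.13, limma adjusted p = 0.871). In each of the 8 genes the LNA-29 and control libraries overlapped.

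Some members varied widely within both groups of mice. Cyp2b10, the main CAR target of mouse liver, had 2787, 10104, 780.4, 703 and 1593 normalised counts with LNA-29, against 622 at the lowest, 3749 at the median and 12141 at the highest in controls. Its highest libraries exceeded the lowest 14.4-fold with LNA-29 and 19.5-fold in controls (log2 -0.95, SE 0.77, limma adjusted p = 0.535). Cyp3a41b and Cyp3a16, close relatives of Cyp3a41a and Cyp3a11, differed 10.3-fold and 14.4-fold within the LNA-29 group, against 5.89-fold and 8.23-fold within controls, and such copies can share reads. The SD of the log2 values was larger with LNA-29 than in controls in 31 of 48 members (64.6%), beside 46.2% of all genes. Cyp2b10, Cyp3a16 and Cyp3a41b were named after their values were seen. The 4 calls were 1 of 9 tested Cyp3a, 1 of 13 Cyp2c, 1 of 7 Cyp2d and 1 of 3 Cyp2j genes. Of the 3 family 1 genes 0 passed in limma, with log2 changes of -0.57 for Cyp1a1, -0.10 for Cyp1a2 and -0.33 for Cyp1b1 and an unadjusted p under 0.05 for Cyp1a1 alone. Of 9 female-predominant members 0 passed in limma, 7 had a negative log2 change and 2 had an unadjusted p under 0.05, where 19.2% of all genes did.

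Among partners and regulators of the P450 genes in mice, Stat5b rose with LNA-29 (3757 ± 243 against 2756 ± 217 in controls, SD, n = 5 and 6, log2 0.45, SE 0.07, limma adjusted p = 0.00566) and was the only call among 16 genes of the growth hormone axis. Por did not pass (log2 -0.31, SE 0.17, limma adjusted p = 0.334), nor did Alas1 (log2 0.04), Ahr (0.04), Nr1i2 (-0.03), Nr1i3 (0.06) or Hnf4a (-0.03). Of 18 nuclear receptors and related factors 0 passed in limma and 5 had an unadjusted p under 0.05, where 19.2% of all genes did. Of 22 tested CAR and PXR targets outside the members 1 passed, the glucuronosyltransferase Ugt2b1, which fell (log2 -0.57, SE 0.11, limma adjusted p = 0.0245), a call lost without LNA-29 replicate 1, 3 or 5 or control replicate 3 (limma adjusted p up to 0.0712). Of 10 hepatocyte markers 1 rose (Ahsg, log2 1.03), of 10 sinusoidal endothelium markers 1 rose (Clec4g, 0.47), of 18 acute-phase genes 1 fell, and of 10 Kupffer cell markers 0 passed in limma, with 0 at an unadjusted p under 0.05. The Kupffer markers summed to 7735 to 14764 with LNA-29, against 9073 to 12230.4 in controls. Beside the counts of these lists, 1.57% of all tested genes rose and 0.863% fell with LNA-29. Of 10 stellate cell markers the collagen Col3a1, a known miR-29 target, rose (log2 1.23, SE 0.27, limma adjusted p = 0.0358), a call kept on leaving out LNA-29 replicate 1 or control replicate 2 or 3 and lost on leaving out any of the other 8 libraries (limma adjusted p up to 0.0743). The 11 pancreatic acinar markers in the table, of which 8 were at 0 in every library, summed to 129 to 150.1 with LNA-29, against 75.96 to 125 in controls, without overlap. Of the 2 tested 1 rose, the elastase Cela2a (log2 1.37, SE 0.26, limma adjusted p = 0.0221), a call lost without LNA-29 replicate 1, 3 or 5 (limma adjusted p up to 0.0681). The 7 kidney and gut markers, of which 1 was tested and did not pass, summed to 3658 to 7959 with LNA-29, against 3294 to 6122 in controls. The part of other cell types or tissues in the P450 values of mice was not tested.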

How the data were processed

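Liver RNA of rats and mice was sequenced from polyA+ TruSeq libraries, per the labels. The authors deposited normalised counts per gene, a signal that is not whole and from which whole reads could not be recovered, so raw depth is unknown. Column sums were 37623525 to 49858906 in rats and 43341525 to 52750017 in mice. The submitters' processing notes name STAR, Salmon and DESeq2 and the builds rn6 and mm10 among others, without versions or roles. Other deposited tables were not used here.

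Values were tested on log2(value + 1) with limma 3.58.1 in R 4.3.3, with a mean-variance trend, all groups of a table in 1 fit, genes with a table mean of at least 10 and two-sided p-values adjusted by Benjamini-Hochberg over all tested genes, called under 0.05. The script was tested on simulated data. The members and lists were chosen with earlier results of these data known. Named were all called members, the 8 highest means per table, up to 3 called genes per list, direction and comparison, and 7 regulators always, and the other members named, such as Cyp2c12 and Cyp3a18, were chosen after their values were seen. Replicate numbers did not pair the libraries. Alternatives were the pseudocount, the filter, median-of-ratios rescaling, a replicate block, only the compared groups and single omissions. Promoter windows came from RefSeq.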

Additional observations from a re-analysis of the deposited data

Results flagged for a closer look

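In 12 of 156 groups of libraries checked for the tested members named, 1 library stood far from the rest of its group. The rule marks about 1 in 20 groups of normally distributed values, which these untransformed counts need not be. Some of the members, such as Cyp2b10 and Cyp3a16, were named after their values were seen. The 12 groups are therefore a description and cannot be set against chance. Cyp1b1 was at 135 normalised counts in 3-month replicate 4, against 14.04 to 49.2 in the other 4 libraries. Cyp2b2 was at 169.6 in 3-month replicate 3, where the other 4 held at most 46.5. Cyp2c7 was at 248057 in 3-month replicate 5 and at most 114826 in the others, and Cyp2c6v1 was at 117542 in 6-month replicate 6. Cyp2c12 was at 16759 in prediabetic replicate 1, where the other 4 held at most 3637. Cyp2j10 was at 3565 in prediabetic replicate 2, where the other 4 held at most 2733, and Cyp3a18 was at 80735 in 6-month replicate 2, where the other 5 held at most 44378. In mice Cyp3a11 was at 215737 in LNA-29 replicate 2, where the other 4 held at most 109443, and Cyp2a12 was at 24633.5 in control replicate 1, the lowest control. Cyp2b10 was at 10104 in LNA-29 replicate 2, where the other 4 held at most 2787. In control mice Cyp1a2 was at 10846 in replicate 2, where the other 5 held at most 7077, and Cyp3a16 was at 7534 in replicate 5, where the other 5 held at most 2441.

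Some members differed between the stages of diabetes themselves, by limma's test of that difference. Between 3 months and 2 weeks the log2 differences were 0.82 for Cyp1a2, -1.51 for Cyp2c11 and -0.72 for Cyp2t1. Between 6 months and 2 weeks they were -0.69 for Cyp2b3, -1.67 for Cyp2c11, -1.01 for Cyp2c7, -0.67 for Cyp2f4 and -0.75 for Cyp2t1.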

How the results depend on the processing

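Of the recomputed values of named members, 1775 kept their direction and side of the threshold, 121 lost and 11 gained a call, and 54 changed sign, none of them a called change. For the list genes, followed only where called, the numbers were 1647 kept, 217 lost and 0 reversed. Leaving out single libraries gave 0 called members at 2 weeks, 7 to 12 at 3 months and 11 to 15 at 6 months against prediabetic, 0 to 4 for 3 months against 2 weeks, 2 to 8 for 6 months against 2 weeks, 0 for 6 months against 3 months and 1 to 7 with LNA-29. In the same order all called genes numbered 0 to 3, 1449 to 2393, 1920 to 3573, 41 to 557, 317 to 1717, 0 to 4 and 120 to 540. The log2 changes whose sign turned on leaving out 1 library ranged, at 2 weeks, as follows: Cyp2a3 (-0.039 to 0.079), Cyp2c11 (-0.25 to 0.15), Cyp2c12 (-0.35 to 0.27), Cyp2c7 (-0.11 to 0.12), Cyp2d2 (-0.050 to 0.048), Cyp2f4 (-0.23 to 0.050), Cyp2j4 (-0.17 to 0.12), Cyp2s1 (-0.32 to 0.034), Cyp2u1 (-0.099 to 0.14) and Cyp3a23/3a1 (-0.15 to 0.0056). At 3 months they were Cyp2c23 (-0.11 to 0.096), Cyp2d2 (-0.044 to 0.17) and Cyp2d4 (-0.30 to 0.099), at 6 months Cyp2d2 (-0.10 to 0.039), Cyp2d4 (-0.28 to 0.021), Cyp2s1 (-0.033 to 0.32) and Cyp3a23/3a1 (-0.25 to 0.0097) and with LNA-29 Cyp1a2 (-0.19 to 0.040), Cyp2c29 (-0.19 to 0.039), Cyp2d26 (-0.087 to 0.0025), Cyp2f2 (-0.15 to 0.053), Cyp3a16 (-0.36 to 0.60) and Cyp3a41b (-0.14 to 0.70). The replicate numbers did not pair the libraries (correlations of same-numbered deviations -0.18 to 0.22). With the replicate block, the log2 changes of Cyp2a3, Cyp2d2 and Cyp2u1 turned to -0.042, -0.021 and -0.014 at 2 weeks and those of Cyp3a16 and Cyp3a41b to -0.14 and -0.036 with LNA-29, 3 months against 2 weeks gave 1 member and 195 genes, 6 months against 2 weeks 3 members and 574 genes, 6 months against 3 months 1 gene, and LNA-29 0 members (limma, where 11 had an unadjusted p under 0.05 without the block) and 70 genes. With only the compared groups, 3 months against 2 weeks gave 0 members and 162 genes, of which 60.5% were higher, beside 49.1% of the main 320. With no filter on low values it gave 0 members, and LNA-29 gave 2 members and 212 genes. A pseudocount of 10 gave 5 genes for 6 against 3 months. The cause of these shifts was not tested. Near-identical copies could not be summed by protein identity and sex was no covariate, since each table showed 1 sex, so both were not run. Raw depth is unknown, so no detection limit could be set.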
